A study of Mus musculus with 4 samples.

Results

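Among the genes measured in Ezh2 f/f and Ezh2 cKO cells labelled as astrocytes are 10 that encode proteins through which astrocytes build or remove synapses, and their transcripts are described here. The rule that selects them uses gene names and no measured value, although the list was drawn up with earlier results of these data known, and 10 of the 29224 genes in the tables are members: Thbs1, Thbs2, Thbs4, Sparc, Sparcl1, Gpc4, Gpc6, Chrdl1, Megf10 and Mertk. The cells were taken from mouse cerebral cortex at postnatal day 5 with magnetic beads carrying an antibody to GLAST, the glutamate transporter encoded by Slc1a3, and RNA was sequenced from 2 Ezh2 f/f and 2 Ezh2 cKO libraries. Both genotypes carry the floxed Ezh2 allele, and in Ezh2 cKO mice Cre recombinase expressed from Aldh1l1 removes it, so that deletion is limited to cells in which Aldh1l1 is or was active. The labels do not say whether a library came from 1 mouse or from several, and p-values measure only the spread between these libraries, which may be technical. All libraries come from the same age and tissue, and no other batch is given.

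Astrocytes instruct synapse formation by proteins that they secrete. Thrombospondins and hevin (Sparcl1) are known to promote the assembly of excitatory synapses, SPARC is known to oppose hevin, the glypicans Gpc4 and Gpc6 recruit AMPA receptors to the postsynaptic membrane, and chordin-like 1 (Chrdl1) favours the maturation of synapses by acting on GluA2-containing receptors. Astrocytes also engulf synapses through the receptors MEGF10 and MERTK. Several of these genes are not restricted to astrocytes: Mertk is also expressed by microglia, and Sparc by endothelial and mural cells.

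Total counts ranged from 16273308 to 17522152 per library, and 3 counts, the limit that a count of 0 allows, corresponded to 0.171 to 0.184 CPM, the count scaled to library size; this limit covers counting error only. The 16793 genes that passed edgeR's filter on low counts were tested by quasi-likelihood, with p-values adjusted over all of them after Benjamini and Hochberg, and a fold change is the Ezh2 cKO level relative to Ezh2 f/f. A gene is said to have risen or fallen at an adjusted p under 0.05. With 2 libraries per group, an exact permutation test on a single gene cannot give a two-sided p below 0.333, so each p comes from the fit across all genes. Ezh2 had 434 and 327 counts in Ezh2 f/f, against 211 and 164 in Ezh2 cKO, and fell by 1.11 on the log2 scale (standard error 0.16, adjusted p = 3.26e-05, edgeR).

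All 10 members passed the filter and had counts in every library. Chrdl1, Sparcl1, Mertk, Sparc and Thbs2 rose in Ezh2 cKO, Gpc4 fell, and Thbs1, Thbs4, Gpc6 and Megf10 did not pass the test. Over all genes tested, 68.4% passed it (34.7% higher and 33.6% lower), so that 6 of 10 members is not more than the background, and 5 of 10 higher is to be read against 34.7%. The groups did not overlap for 8 of the 10 members, against 84.3% of all genes tested. The median log2 fold change of the members was 0.54, beside 0.02 for all genes tested. Chrdl1, Sparcl1 and Mertk were at least 2-fold higher, as were 19.0% of all genes tested, and no member was at least 2-fold lower, against 14.0%. At an unadjusted p under 0.05 the same counts, 5 higher and 1 lower, were obtained in edgeR.

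**Figure D1:**
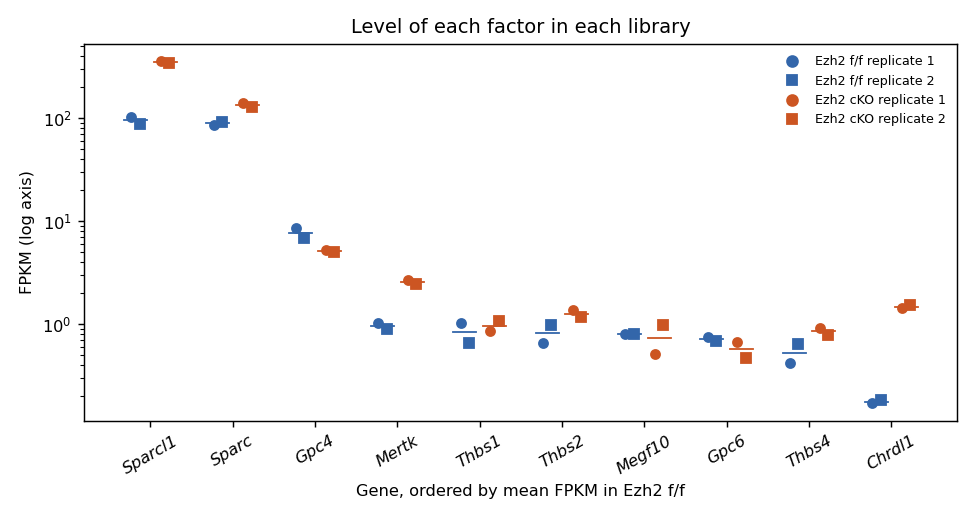
FPKM of each member (log axis) in the 4 libraries, with points for libraries and a line for the mean of each genotype, ordered by the mean in Ezh2 f/f. Sparcl1 and Sparc lie between 86.6 and 360 FPKM, Gpc4 between 4.98 and 8.57 FPKM, and the 7 other genes below 3 FPKM.

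**Figure D2:**
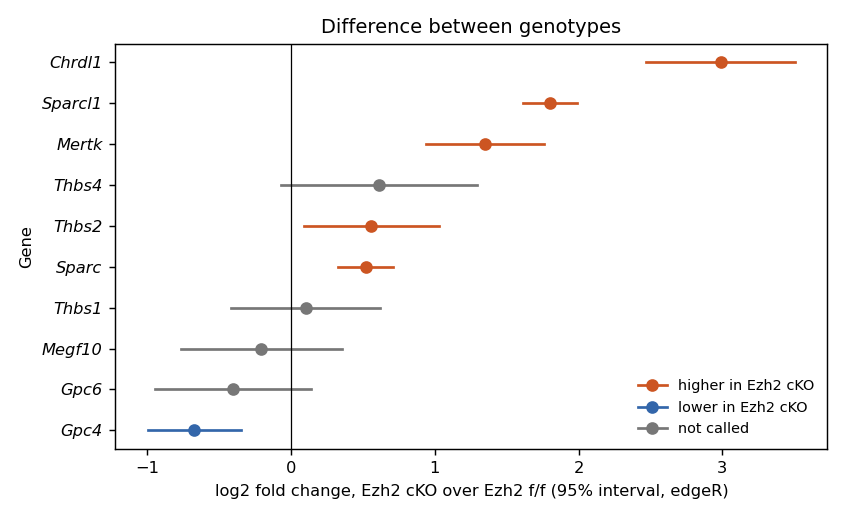
Log2 fold change of each member between genotypes (edgeR, Ezh2 cKO over Ezh2 f/f), with its 95% interval. The intervals of Chrdl1, Sparcl1, Mertk, Thbs2 and Sparc lie above 0, that of Gpc4 lies below 0, and those of Thbs4, Thbs1, Megf10 and Gpc6 cross 0.

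The 10 transcripts differed widely in level. Levels are compared between genes as FPKM, the authors' values scaled to gene length and library size. Sparc and Sparcl1 together held 93.4% and 94.0% of the summed FPKM of the members in Ezh2 f/f, against 97.4% and 97.3% in Ezh2 cKO. In Ezh2 f/f the order by mean FPKM was Sparcl1, Sparc, Gpc4, Mertk, Thbs1, Thbs2, Megf10, Gpc6, Thbs4 and Chrdl1, but Sparcl1 overlapped Sparc between libraries, and so did each neighbouring pair from Mertk to Megf10. In Ezh2 cKO every library of Sparcl1 lay above every library of Sparc, Chrdl1 had moved from the last place to the fifth, and the neighbouring pairs from Thbs1 to Gpc6 overlapped.

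The secreted pair of SPARC family members came first in level. Sparcl1 (ENSMUSG00000029309), which encodes hevin, had 103 and 88.8 FPKM in Ezh2 f/f, against 360 and 348 FPKM in Ezh2 cKO. Both Ezh2 cKO libraries were above both Ezh2 f/f libraries, and the gap between genotypes was larger than the spread between replicates. Its rank by FPKM among the 29224 genes went from 446 and 568 to 80 and 77. Sparcl1 rose 3.49-fold (log2 fold change 1.80, standard error 0.09, adjusted p = 8.30e-10, edgeR), and 8.35% of all genes tested had a larger log2 fold change. The summed FPKM of 12 astrocyte markers moved with it, at 134 and 144 in Ezh2 f/f, against 519 and 480 in Ezh2 cKO, and their part in this difference was not tested. Sparcl1 is listed on chromosome 5 from 104226977 to 104261599, minus strand. The long non-coding RNA Gm26703 overlaps it on the other strand, with 9 and 11 counts in Ezh2 f/f, against 40 and 30 in Ezh2 cKO, and since the use of strand in the counting is not stated, reads of this pair cannot be told apart.

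Sparc (ENSMUSG00000018593), which encodes a matrix protein that is known to oppose hevin at synapses, had 86.6 and 91.9 FPKM in Ezh2 f/f, against 142 and 129 FPKM in Ezh2 cKO. The genotypes did not overlap. Sparc rose 1.43-fold (log2 fold change 0.52, standard error 0.09, adjusted p = 1.23e-04, edgeR), and it is listed on chromosome 11 from 55285326 to 55314009. The ratio of Sparcl1 to Sparc in FPKM was 1.19 and 0.967 in the Ezh2 f/f libraries, against 2.53 and 2.71 in the Ezh2 cKO libraries, so that hevin transcripts were about level with those of SPARC in the former and exceeded them in the latter.

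Chrdl1 (ENSMUSG00000031283), an antagonist of bone morphogenetic proteins (BMPs) that astrocytes secrete, showed the largest fold change of the 10 genes from a low level. It had 20 counts in each Ezh2 f/f library and 169 and 171 in the Ezh2 cKO libraries. In FPKM these were 0.169 and 0.182 against 1.44 and 1.52, and replicates were close to each other in both genotypes. Chrdl1 rose 7.93-fold (95% interval 5.54 to 11.4; log2 fold change 2.99, standard error 0.24, adjusted p = 9.77e-08, edgeR). The gene is listed on chromosome X from 142068670 to 142177258. On the log2(FPKM + 1) scale, which understates the change of low genes, the log2 fold change was 1.08. Chrdl1 reached the filter of that fit, FPKM of 1 or more in 2 libraries, only through Ezh2 cKO.

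Of the glypicans, which are bound to the cell surface and can be shed, Gpc4 fell and Gpc6 did not pass the test. Gpc4 (ENSMUSG00000031119), the higher of the pair, had 8.57 and 6.79 FPKM in Ezh2 f/f, against 5.25 and 4.98 FPKM in Ezh2 cKO. Its Ezh2 cKO libraries were both below its Ezh2 f/f libraries. Gpc4 fell by 0.67 on the log2 scale (standard error 0.15, adjusted p = 0.00130, edgeR), which is 1.59-fold lower, and it is listed on chromosome X from 51141898 to 51254129. Gpc6 had 84 and 71 counts in Ezh2 f/f, against 75 and 50 in Ezh2 cKO. The genotypes did not overlap in CPM, but the replicates of Ezh2 cKO differed by 0.56 on the log2 scale, and the log2 fold change of -0.40 did not pass the test (95% interval -0.94 to 0.14, adjusted p = 0.172, edgeR). In FPKM, Gpc4 exceeded Gpc6 in every library, by 7.79- to 11.5-fold, and this ratio overlapped between the genotypes.

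The thrombospondins among the members were low in all libraries. The summed FPKM of Thbs1, Thbs2 and Thbs4 was 2.10 and 2.27 in Ezh2 f/f, against 3.14 and 3.01 in Ezh2 cKO. Thbs3, a relative outside the members, was higher and is given below. Thbs2 had 80 and 111 counts in Ezh2 f/f, against 166 and 136 in Ezh2 cKO. It rose 1.47-fold (log2 fold change 0.56, standard error 0.22, adjusted p = 0.0353, edgeR), with a 95% interval of the fold from 1.06 to 2.04. This call was lost with DESeq2 (adjusted p = 0.113), without the filter on low counts (0.0607), with limma on log2(FPKM + 1) (0.0687) or log2(FPKM + 0.1) (0.0830), and without Ezh2 f/f replicate 1 (log2 fold change 0.29, adjusted p = 0.270), Ezh2 cKO replicate 1 (0.42, 0.242) or Ezh2 cKO replicate 2 (0.69, 0.0620), and without Ezh2 f/f replicate 2 the log2 fold change was 0.87.

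Thbs4 had 24 and 34 counts in Ezh2 f/f, against 52 and 43 in Ezh2 cKO. The genotypes did not overlap, but its log2 fold change of 0.61 did not pass the test (95% interval -0.07 to 1.29, adjusted p = 0.101, edgeR). It passed only without Ezh2 f/f replicate 2 (log2 fold change 0.93, adjusted p = 0.0326). Thbs1, the most studied of the family in synapse formation, had 110 and 65 counts in Ezh2 f/f, against 91 and 108 in Ezh2 cKO, and the genotypes overlapped. Its log2 fold change was 0.10 (95% interval -0.42 to 0.62, adjusted p = 0.724, edgeR), and its sign turned when Ezh2 f/f replicate 2 (-0.19) or Ezh2 cKO replicate 2 (-0.04) was left out.

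Of the engulfment receptors, Mertk rose and Megf10 did not pass the test. Mertk (ENSMUSG00000014361), a receptor tyrosine kinase that binds phosphatidylserine through bridging proteins, had 77 and 63 counts in Ezh2 f/f, against 201 and 179 in Ezh2 cKO. Its libraries separated by genotype, at 1.01 and 0.893 FPKM against 2.67 and 2.48 FPKM. Mertk rose 2.55-fold (log2 fold change 1.35, standard error 0.19, adjusted p = 2.34e-05, edgeR), and it is listed on chromosome 2 from 128540876 to 128644814. All 10 microglia markers rose beside Mertk, with summed values of 59.5 to 60.0 FPKM in Ezh2 f/f and 147 to 168 FPKM in Ezh2 cKO, and their part in this difference was not tested. Megf10, a receptor with repeated EGF-like domains that binds C1q, had 109 and 100 counts in Ezh2 f/f, against 68 and 125 in Ezh2 cKO. One Ezh2 cKO library was below both Ezh2 f/f libraries and the other above them in CPM, and these libraries differed by 0.90 on the log2 scale. The log2 fold change of Megf10 was -0.20 (95% interval -0.76 to 0.35, adjusted p = 0.499, edgeR). It was 0.18 on leaving out Ezh2 cKO replicate 1, and -0.72 on leaving out Ezh2 cKO replicate 2, where it passed the test (adjusted p = 0.0444).

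The RefSeq table of promoters (GRCm38.p6) held entries for 5 of the 10 members: Gpc4, Mertk, Sparc, Thbs2 and Thbs4. PRC2, the complex of EZH2, is known to act mainly at promoters rich in CpG. In the 250 bases before the start site, Thbs2 and Thbs4 held the lowest and the highest number of CpG of the 5, and Mertk rose most of the 5. The windows of Sparc and Gpc4 were counted but are not printed. Those of Thbs2, Thbs4 and Mertk are shown here because no GENCODE M21 exon of the gene lies in them. They are printed in the direction of transcription with each CpG in capitals, at chr17:14694263-14694512 on the minus strand (Thbs2), chr13:92794819-92795068 on the minus strand (Thbs4) and chr2:128698665-128698914 on the plus strand (Mertk). These coordinates are of GRCm38 and are not those of the deposited tables.
Thbs2: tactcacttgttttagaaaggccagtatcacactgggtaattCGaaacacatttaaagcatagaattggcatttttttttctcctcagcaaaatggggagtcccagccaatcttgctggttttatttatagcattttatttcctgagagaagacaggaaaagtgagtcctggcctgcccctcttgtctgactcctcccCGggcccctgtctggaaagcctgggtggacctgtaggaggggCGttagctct
Thbs4: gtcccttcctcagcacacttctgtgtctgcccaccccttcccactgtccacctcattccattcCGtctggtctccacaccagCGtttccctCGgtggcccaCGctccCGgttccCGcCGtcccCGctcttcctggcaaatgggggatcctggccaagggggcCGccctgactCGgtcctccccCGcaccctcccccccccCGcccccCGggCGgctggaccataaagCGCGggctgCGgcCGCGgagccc
Mertk: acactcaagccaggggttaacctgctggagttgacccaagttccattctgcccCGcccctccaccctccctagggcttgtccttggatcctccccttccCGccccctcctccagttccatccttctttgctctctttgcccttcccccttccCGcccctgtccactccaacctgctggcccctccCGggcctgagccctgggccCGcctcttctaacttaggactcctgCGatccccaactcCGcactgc

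In these 250 bases Thbs2 had 3 CpG, Thbs4 had 19 and Mertk had 7, against a median of 6 over 32851 promoters, and Sparc had 4 and Gpc4 had 18. The observed over expected ratio of CpG was 0.712 for Gpc4 and 0.677 for Thbs4, above the 0.6 that 33.9% of all promoters reached, and 0.351 for Mertk, 0.220 for Sparc and 0.219 for Thbs2. The letters TTGGC, part of the site of the nuclear factor I proteins of astrocytes, were found on either strand 2 times before Thbs2 and 1 time before Thbs4, and in 41.5% of all promoters. The full nuclear factor I palindrome and the STAT letters TTCNNNGAA were in none of the 5 windows, beside 0.0365% and 7.02% of all promoters. Such matches describe letters in this window only.

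The cell type named by the labels was checked against lists of marker genes. Of 12 astrocyte markers none was at 0 in any library, and 11 rose and 0 fell in Ezh2 cKO. Their summed FPKM was 134 and 144 in Ezh2 f/f, against 519 and 480 in Ezh2 cKO, while Aldh1l1 itself was at 16.6 and 15.8 FPKM on average in these groups and did not pass the test (log2 fold change -0.15, adjusted p = 0.175, edgeR). Transcripts of other cells were present too: 10 pan-neuron markers summed to between 2813 and 2992 FPKM over the libraries of both genotypes, with 8 higher and 2 lower. This sum exceeded the astrocyte sum in every library. Tubb3 alone was at 1859 and 1897 FPKM in Ezh2 f/f (rank 8 in each library), against 1223 and 1207 FPKM in Ezh2 cKO. Slc1a3, the gene of the sorted antigen, was at 11.1 and 11.6 FPKM (ranks 4535 and 4349) in Ezh2 f/f, against 36.1 and 36.5 FPKM (ranks 1541 and 1531) in Ezh2 cKO. The markers thus do not bear out astrocytes as the main source of RNA in these libraries. The sums depend on which genes are listed, and they do not give the share of RNA from each cell type. Tubb3, Gap43 and Stmn2, for example, averaged 1878, 638 and 225 FPKM in Ezh2 f/f. In bulk RNA, fewer cells of a type and less RNA per cell cannot be told apart.

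The marker sums that moved with the members were those of several cell types. Of 10 microglia markers all 10 rose, from a sum of 59.5 to 60.0 FPKM in Ezh2 f/f to 147 to 168 FPKM in Ezh2 cKO. Of 6 oligodendrocyte precursor and 6 oligodendrocyte markers all rose, with sums of 51.1 to 51.2 against 157 to 179 FPKM and of 13.3 to 16.6 against 128 to 146 FPKM, and Mobp was at 0 in 1 library. Of 7 tested mural markers of 8, 4 rose and 1 fell (65.4 to 71.3 against 109 to 124 FPKM), and of 10 endothelial markers 3 rose and 2 fell (123 to 130 against 124 to 143 FPKM). Fibroblast and meningeal markers, with 2 higher and 4 lower of 8, were at 46.5 to 50.5 against 45.8 to 49.2 FPKM. Excitatory neuron markers, with 2 higher and 3 lower of 6, went from 283 to 316 up to 640 to 669 FPKM, and inhibitory neuron markers, with 1 higher and 3 lower of 6, from 94.5 to 104 down to 74.7 to 80.0 FPKM. Radial glia and progenitor markers, with 2 higher and 6 lower of 8, went from 86.9 to 89.0 down to 59.8 FPKM in each Ezh2 cKO library, and cycling markers, with 0 higher and 5 lower of 6, from 16.1 to 16.4 down to 8.68 to 9.14 FPKM. Apart from Mobp, no marker of these lists was at 0 in a library. Cspg4 is in both the mural and the oligodendrocyte precursor lists, and Pdgfra is in both the fibroblast and the oligodendrocyte precursor lists. Both genes rose, so these lists are not separate.

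**Figure D3:**
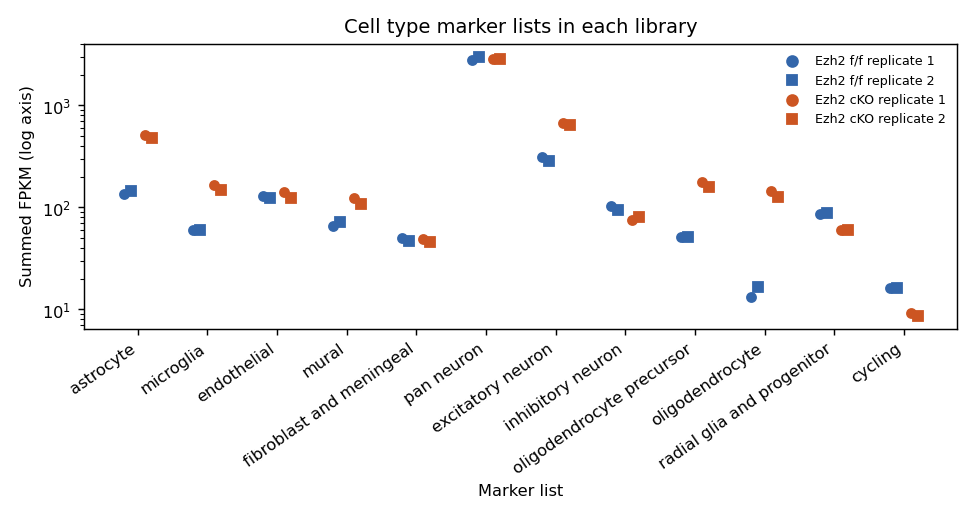
Summed FPKM (log axis) of 12 marker lists in each of the 4 libraries. The astrocyte sum is 134 to 144 in Ezh2 f/f and 480 to 519 in Ezh2 cKO, the microglia sum 59.5 to 60.0 and 147 to 168, and the pan-neuron sum lies between 2813 and 2992 in all libraries.

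Members were next set against these sums, a description chosen after the values had been seen. Per 100 FPKM of summed astrocyte markers, Sparcl1 was at 76.8 and 61.8 FPKM in Ezh2 f/f, against 69.4 and 72.6 FPKM in Ezh2 cKO, so that the genotypes overlapped. Chrdl1 was at 0.126 in each Ezh2 f/f library and 0.278 and 0.316 in the Ezh2 cKO libraries, and it was the 1 member that stayed above its Ezh2 f/f libraries on this scale. Sparc went from 64.5 and 63.9 to 27.4 and 26.8, Gpc4 from 6.38 and 4.72 to 1.01 and 1.04, and the other 6 members were also lower in both Ezh2 cKO libraries than in both Ezh2 f/f libraries. In the astrocyte sum, Aldoc and Atp1b2 were the highest markers in both genotypes, and Slc1a2 went from 4.80 to 78.1 FPKM on average.

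The overlap of Sparcl1 was not limited to the astrocyte sum. Per 100 FPKM of oligodendrocyte precursor markers, Sparcl1 was at 202 and 174 FPKM in Ezh2 f/f, against 201 and 221 FPKM in Ezh2 cKO, and the genotypes overlapped here too. Per 100 FPKM of pan-neuron markers, Sparcl1 was at 3.67 and 2.97 FPKM in Ezh2 f/f, against 12.7 and 12.3 FPKM in Ezh2 cKO. The pan-neuron sum differed little between genotypes, but this does not hold for its single markers. Tubb3, the largest part of the sum, fell from 1859 and 1897 to 1223 and 1207 FPKM. In all, 8 of the 10 markers rose and 2 fell, with a median log2 fold change of 0.55. Per 100 FPKM of microglia markers, Mertk was at 1.69 and 1.501 FPKM in Ezh2 f/f, against 1.60 and 1.68 FPKM in Ezh2 cKO, and the genotypes overlapped. Per 100 FPKM of mural markers, Sparc was at 132 and 129 FPKM in Ezh2 f/f, against 115 and 118 FPKM in Ezh2 cKO, and per 100 FPKM of endothelial markers at 66.8 and 74.8 against 99.7 and 104. Which cells the reads of each member came from was not tested, and the part of cell composition in these differences was not tested.

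**Figure D4:**
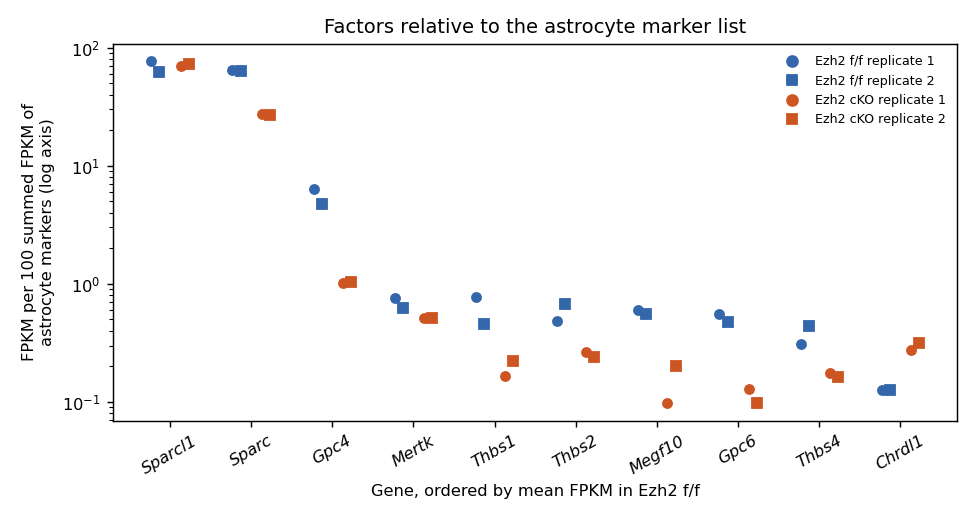
FPKM of each member per 100 summed FPKM of the 12 astrocyte markers (log axis) in each of the 4 libraries. Sparcl1 overlaps between genotypes (61.8 to 76.8), Chrdl1 is higher in Ezh2 cKO, and the other 8 members are lower in both Ezh2 cKO libraries.

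Families, receptors and partners of the members were taken from 7 lists with 94 genes, of which 91 were tested. Of these, 51 rose and 17 fell, and their median log2 fold change was 0.49. By direction, 56.0% of them were higher and 18.7% lower, beside 34.7% and 33.6% of all genes tested, and 74.7% passed in either direction, beside 68.4%.

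Among the thrombospondin family and its receptors, 4 of 9 tested genes rose and 3 fell (median log2 fold change 0.04). Cacna2d1, which encodes the neuronal thrombospondin receptor alpha2delta-1, had 3.00 and 2.78 FPKM in Ezh2 f/f, against 6.78 and 8.46 FPKM in Ezh2 cKO (log2 fold change 1.31, standard error 0.11, adjusted p = 1.44e-07, edgeR). Its relative Cacna2d3 rose by 1.51 on the log2 scale, while Cacna2d2 fell by 0.53. Thbs3, the family member with the highest level here, fell from 17.3 and 14.9 FPKM to 8.48 and 7.56 FPKM (log2 fold change -1.09, adjusted p = 5.89e-07, edgeR). Each library of Thbs3 was above the summed FPKM of Thbs1, Thbs2 and Thbs4 in that library. The receptor Cd47 rose by 0.78, the scavenger receptor Cd36 rose from 6 and 1 to 26 and 31 counts, and the syndecan Sdc1 fell by 1.24. Comp, a thrombospondin of cartilage, had 2 to 5 counts per library and was not tested.

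In the SPARC family and among the partners of hevin, 8 of 12 genes rose and 2 fell (median 0.55). The testican Spock2 had 127 and 145 FPKM in Ezh2 f/f, against 260 and 248 FPKM in Ezh2 cKO (log2 fold change 0.82), and Spock3 rose by 2.03. Smoc1, a calcium-binding matrix protein, fell by 0.67. Hevin is known to act across the synaptic cleft on adhesion proteins, among them the postsynaptic neuroligin Nlgn1. Nrxn3, a presynaptic adhesion protein, rose by 1.08. Nlgn1 rose by 0.70, whereas Nlgn2, the neuroligin of inhibitory synapses, fell by 0.46.

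In the list of glypicans and their receptors, 5 of 12 genes rose and 4 fell (median 0.10). Within the family of glypicans, Gpc1, Gpc2 and Gpc3 fell like Gpc4, by 0.49, 2.42 and 1.11 on the log2 scale. Gpc5 was the 1 glypican that rose, from 36 and 37 counts to 312 and 265 counts (log2 fold change 2.88, standard error 0.20, adjusted p = 2.17e-08, edgeR). Ptprs, a presynaptic receptor of Gpc4, fell from 72.0 and 62.7 FPKM to 40.4 and 39.0 FPKM (log2 fold change -0.85). Lrrtm4, a postsynaptic partner of glypicans, rose by 1.48. Nptx1, a neuronal pentraxin that Gpc4 is known to release from axons, rose from 3.31 and 2.86 FPKM to 15.4 and 15.9 FPKM (log2 fold change 2.26), and Gria1, which encodes the AMPA receptor subunit GluA1, rose by 0.48.

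On the chordin and BMP axis, 5 of 13 tested genes rose and 2 fell (median 0.07). Chrd, the founding member of the chordin family, was at 5.08 and 4.83 FPKM in Ezh2 f/f, against 5.21 and 4.77 FPKM in Ezh2 cKO (log2 fold change -0.07, adjusted p = 0.579, edgeR), and Chrdl2 had 2 to 5 counts per library and was not tested. Bmp4 rose from 34 and 47 to 192 and 171 counts (log2 fold change 2.06, standard error 0.23, adjusted p = 2.41e-06, edgeR), whereas Bmp6 fell by 0.95. Id3, a target of BMP signalling, rose by 1.25, and Id1, another target, was at 0.11 (adjusted p = 0.538, edgeR). Gria2, which encodes the GluA2 subunit on which Chrdl1 acts, rose by 1.28.

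Of 20 phagocytic receptors, bridging proteins and engulfment effectors, 13 rose and 1 fell (median 0.52). Axl and Tyro3, the other receptors of the Mertk family, rose by 0.76 and 0.51, and the bridging ligands Gas6 and Pros1 by 0.60 and 0.99. Gas6 had 31.4 and 33.9 FPKM in Ezh2 f/f, against 53.6 and 51.5 FPKM in Ezh2 cKO. Itgb3, an integrin subunit that takes part in engulfment, rose from 41 and 27 to 278 and 215 counts (log2 fold change 2.76), and its partner Itgav rose by 1.42. Megf11, the closest relative of Megf10, rose by 0.54 (adjusted p = 0.0104, edgeR), and Pear1, of the same family, fell by 0.78.

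Among the complement and C1q-like genes with Sirpa, the receptor of the CD47 signal against engulfment, 8 of 10 rose and 0 fell, at a median of 1.01. At an unadjusted p under 0.05 none of these 10 was lower in edgeR either. C1qa rose by 1.05, C4b, which may share reads with its near-identical copy C4a, by 2.65 and Itgam, a complement receptor of microglia, from 5 counts in each Ezh2 f/f library to 78 and 58 counts. C1qa, C1qb and C1qc are also in the microglia list. C1ql1, a synaptic organiser of the C1q family, rose by 2.66, and Sirpa by 0.82.

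Of the other glial factors that act on synapses, 8 of 15 tested genes rose and 5 fell (median 0.54). Apoe, the main lipid carrier that astrocytes secrete, rose from 278 and 308 FPKM to 905 and 765 FPKM (log2 fold change 1.43), Bcan by 1.10 and Il33 by 2.87. Wnt7b fell from 55.9 and 49.1 FPKM to 21.9 and 18.4 FPKM (log2 fold change -1.46), Ephb1 fell by 1.02 and Tnc by 0.82. Tnf had 0 to 3 counts per library and was not tested.

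**Figure D5:**
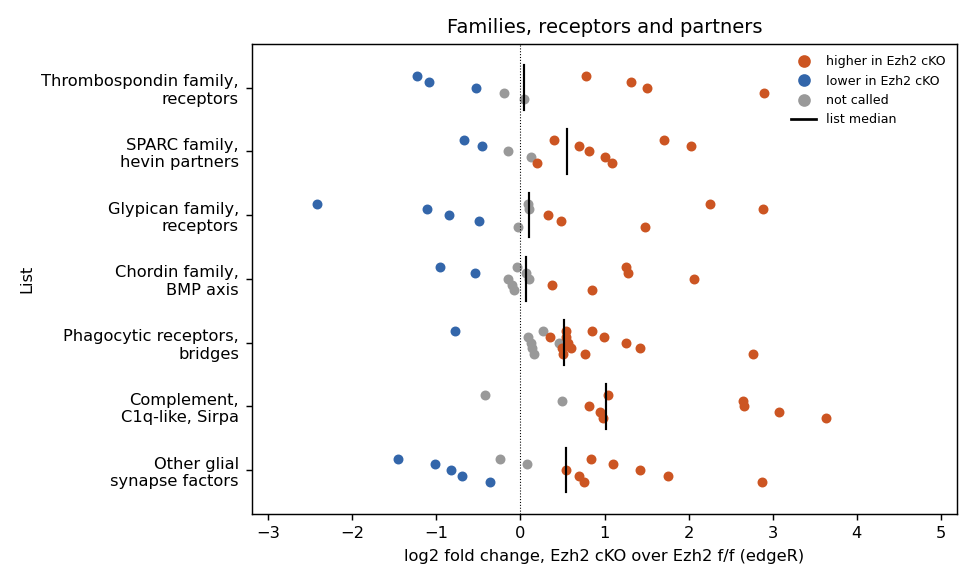
Log2 fold changes (edgeR, Ezh2 cKO over Ezh2 f/f) of the tested genes of 7 lists, coloured by call, with the median of each list as a line. The complement list has the highest median (1.01), with 8 of 10 genes higher, and the glypican list spans -2.42 to 2.88.

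Genes whose pattern was closest to that of a member were found by the distance between log2 CPM values, centred on the mean of each gene, over the 4 libraries. For Sparcl1 these were Rgs20 (distance 0.05), H2-DMa (0.06) and Gm36937 (0.06), and for Gpc4 they were Lhx2 (0.03), Gm5931 (0.03) and Mccc1 (0.04). Lhx2 encodes a homeobox factor of cortical progenitors, and its log2 fold change was -0.67, as for Gpc4. Gm36937, a long non-coding RNA of low CPM, had a fitted log2 fold change of 3.34, and the 0.5 CPM added before the logarithm brings it near Sparcl1. Gm5931 is a processed pseudogene that may share reads with its parent gene. With 4 libraries many genes can lie this close, and the distances are a description only.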

How the data were processed

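RNA of bead-sorted cortical cells, labelled as astrocytes, from 2 Ezh2 f/f and 2 Ezh2 cKO samples at postnatal day 5 had been sequenced on an Illumina platform. The authors deposited raw read counts per gene and FPKM values, which they scaled to gene length and library size, per library. The submitters' processing notes name Bowtie2 2.2.3, TopHat2 2.0.12, HTSeq 0.6.0 and the build mm9 with no role; annotation and use of strand are not given in the sources used here. The deposited table also holds the authors' own comparison, which was not used. Of 28799 genes with an identifier in GENCODE M21 (GRCm38), 581 had the coordinates given there; positions are printed as deposited, in a build that was not identified, and were not converted.

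Counts were fitted in R 4.3.3 with edgeR 4.0.16 (filterByExpr, TMM, quasi-likelihood test, genotype as the only term). The standard error is the log2 fold change over the square root of F. Alternatives were DESeq2 1.42.0, its size factors, other filters (none, or a mean of at least 50 counts), limma 3.58.1 on log2(FPKM + 1) and log2(FPKM + 0.1) (FPKM of 1 or more in 2 libraries), a term for the replicate number, and the removal of single libraries. The fits were tested on simulated data. The members and lists were chosen with earlier results of these data known. Genes named are the 10 members, up to 4 genes per list and direction with the smallest p, and family members or receptors of a member; Id1, C1qa, Gm26703 and the genes that were not tested were named after their values were seen. Replicates were not duplicates: the ratio of chi-square to degrees of freedom between them was 9.43 (Ezh2 f/f) or 6.05 (Ezh2 cKO). One gene of the lists is not reported here by name.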

Additional observations from a re-analysis of the deposited data

How the results depend on the processing

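Over the alternatives in which each could be fitted, Chrdl1, Sparcl1, Mertk, Sparc and Gpc4 kept their direction and their side of the threshold, with log2 fold changes of 1.08 to 3.03, 1.69 to 1.91, 0.87 to 1.44, 0.43 to 0.61 and -0.84 to -0.50. On leaving out single libraries, 4 to 6 members were higher and 1 to 2 lower; the second lower gene was Megf10, without Ezh2 cKO replicate 2. In these fits Thbs1 ranged from -0.19 to 0.46, with its sign turned on removing Ezh2 f/f replicate 2 (-0.19) or Ezh2 cKO replicate 2 (-0.04), and Megf10 from -0.72 to 0.18, with its sign turned on removing Ezh2 cKO replicate 1. The call of Thbs2 was lost in 7 of 11 alternatives (adjusted p from 7.77e-04 to 0.270); these are DESeq2, no filter, limma with either pseudocount, and the removal of Ezh2 f/f replicate 1 or of either Ezh2 cKO library. The cause was not tested. Thbs4, Gpc6 and Megf10 did not reach the FPKM filter of limma, and Thbs4 did not reach the filter of 50 counts. Chrdl1 and Thbs2 reached 1 FPKM in their Ezh2 cKO libraries only, and Mertk in these and in Ezh2 f/f replicate 1. These 3 genes thus entered the limma fits through the group where they are higher, and the limma fits are no added support for them. The labels do not say that a replicate number pairs libraries, and the deviations of libraries with the same number correlated with r = 0.13; with the replicate block 5 members were higher and 1 lower, as without it. Thbs1, Thbs4, Gpc6 and Megf10 had 24 to 125 counts per library, and their 95% intervals span 0; Chrdl1 passed the test with 20 counts in each Ezh2 f/f library, and the parts of depth and of replicate spread in the missing calls were not tested.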
